A study of Mus musculus with 15 samples.

Results

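The genes described here are 47 markers of white blood cells, read in whole mouse hearts after long exposure to methamphetamine (meth). They were chosen by name as genes that mark one leukocyte lineage or all leukocytes. The set holds 16 macrophage and monocyte genes, 2 dendritic cell genes, 4 neutrophil genes, 4 mast cell genes, 8 T cell genes, 4 NK and cytotoxic genes, 5 B cell genes and 4 genes carried by all leukocytes. A probe was matched for 44 of the 47, out of 18350 genes with a matched probe on the array. Cd68, Ly6g and Kit were not matched and are not analysed here.

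The hearts came from C57BL/6 mice, young adults at the start, injected into the peritoneum once a week. The meth groups received methamphetamine hydrochloride in phosphate-buffered saline (PBS) in doses that rose to a final 40 mg/kg at 5 months, and the control groups received PBS alone on the same schedule. Each array held RNA of 1 heart, labelled with Cy3, giving 4 male meth, 4 male PBS, 4 female meth and 3 female PBS arrays. The males came from 2 trials, with 2 meth and 2 PBS hearts from each, and the females were placed in trial 1 by their titles. The source label of female meth replicates 3 and 4 and of female PBS replicate 3 reads trial 2 instead. No allele, transgene or sort was involved, so each value is a mixture of all cells that the excised tissue held.

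A resting mouse heart holds its own leukocytes. Most are macrophages that settle between the cardiomyocytes, take up debris and make complement, while mast cells lie along vessels and in the outer layer and store proteases in granules. T cells, B cells, NK cells and neutrophils are few, and part of them sit in blood left in the vessels. A marker transcript in whole tissue follows both the number of cells and the RNA each of them holds, so fewer cells of a type and less RNA per cell cannot be told apart here.

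All values are normalized log2 signal, the log2 of the scanner's processed signal minus that of the array's 75th percentile, so that 0 is the level of a probe at that percentile. Probes that the scanner software placed well above background on 3 or more of the 15 arrays were tested. Between 61.3% and 71.4% of the probes on an array were well above background, and no spot was saturated. The arrays filled 4 slides read in 3 scan sessions. All trial 2 males lay on slide 3, read in session 2, while trial 1 males shared slides 1 and 2 with female meth and PBS replicates 1 and 2. Cardiomyocyte genes were at their high levels on every array, with a summed level of 12 genes between 11.7 and 12.3, and 0 of the 12 passed the test of meth against PBS in either sex by limma (0 with an unadjusted p under 0.05 in either sex).

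Of the 44 genes with a probe, 29 were well above background on all 15 arrays, 11 on some and 4 on none, and 40 were tested. The lineages differed in how much of them could be read. All 15 matched macrophage and monocyte genes were measured on every array, as were all 3 mast cell genes and all 4 genes of leukocytes in general. Of the 8 T cell genes 3 were measured on every array, of the 5 B cell genes 2, of the 4 NK and cytotoxic genes 1, and of the 3 matched neutrophil genes none. Foxp3, the master factor of regulatory T cells, Pax5 and Blk of the B lineage and Elane, the neutrophil elastase, were well above background on no array. Flt3, a receptor of dendritic cell precursors, was measured on 4 arrays and on no male one. Cd4, the helper T cell co-receptor, was measured on 3 arrays and again on no male one, so no fold is given for either gene.

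The spread between hearts of one group also differed between lineages. The median standard deviation within groups was 0.194 over all tested probes and 0.317 over the 40 tested markers. It was 0.213 for the macrophage genes, 0.385 for the mast cell genes, 0.418 for the T cell genes, 0.511 for the NK and cytotoxic genes and 0.632 for the neutrophil genes. Single arrays moved whole lineages at once. Macrophage genes lay on average 0.38 and 0.35 above their own means in female meth replicates 1 and 4, and their mean deviations were -0.30 and -0.31 in the trial 2 male PBS hearts. NK and cytotoxic genes averaged -1.41 and -1.34 in the first male meth and the first male PBS heart of trial 2.

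**Figure D1:**
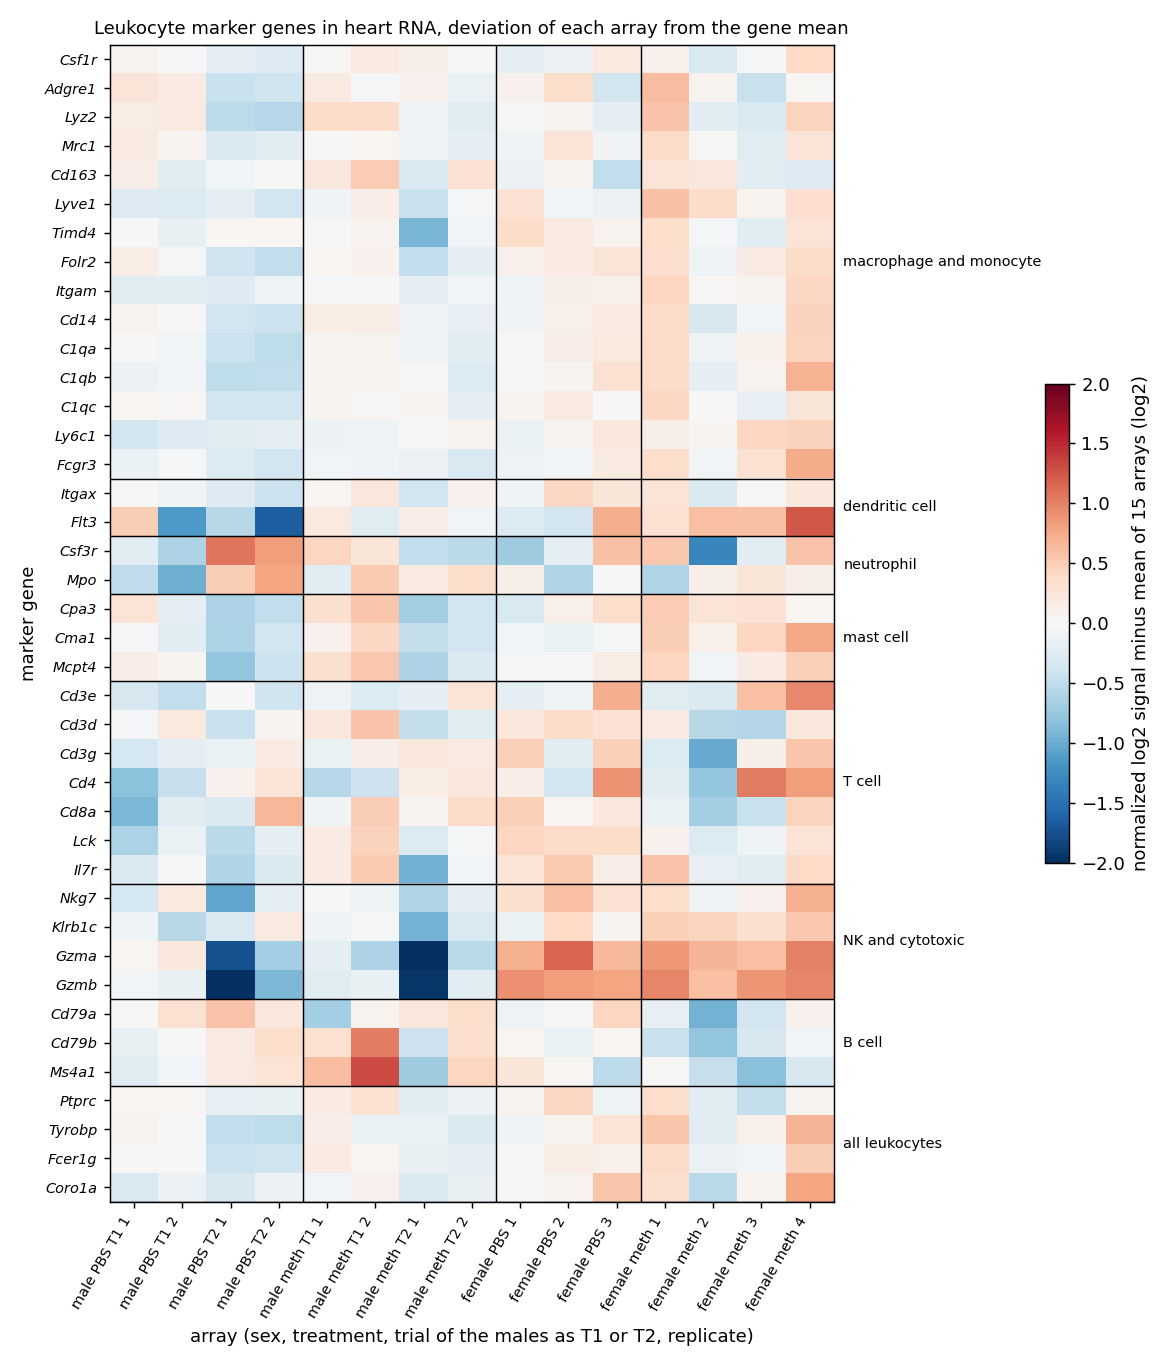
Deviation of each of the 40 tested markers (rows, grouped by lineage) from its mean over the 15 arrays (columns, grouped by sex, treatment and trial), in normalized log2 signal. The Gzma and Gzmb rows separate female from male columns, while Nkg7 and Klrb1c overlap between the sexes, and the mast cell rows separate trial 2 from trial 1 males.

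Meth against PBS was compared first in males, as the test of whether marker transcripts moved with exposure. No marker passed the threshold (limma, adjusted p under 0.05), against 1.10% of all probes tested. With an unadjusted p under 0.05 there were 2 of 40, Lck and Ly6c1, against 12.8% of all probes, and the methods' t-test gave 0 after adjustment. Without Cd4 and Flt3, which no male array measured, the difference was positive for 33 of 38 and negative for 5, with a median of 0.18 where the median over all probes was -0.03. The 95% intervals of 35 of these 38 lay within 1 log2 unit of 0 on both sides, so their intervals did not reach a 2-fold change either way.

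In females, too, no marker passed by limma, against 0.769% of all probes. The 4 with an unadjusted p under 0.05, against 11.0% of all probes, were Lck and Cd3d, lower in meth hearts, and Cma1 and Fcgr3, higher in them, and the methods' t-test again gave 0 after adjustment. The median difference was 0.05, with 25 positive and 15 negative, where the median over all probes was 0.00. The intervals of 35 of the 40 lay within 1 unit of 0.

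**Figure D2:**
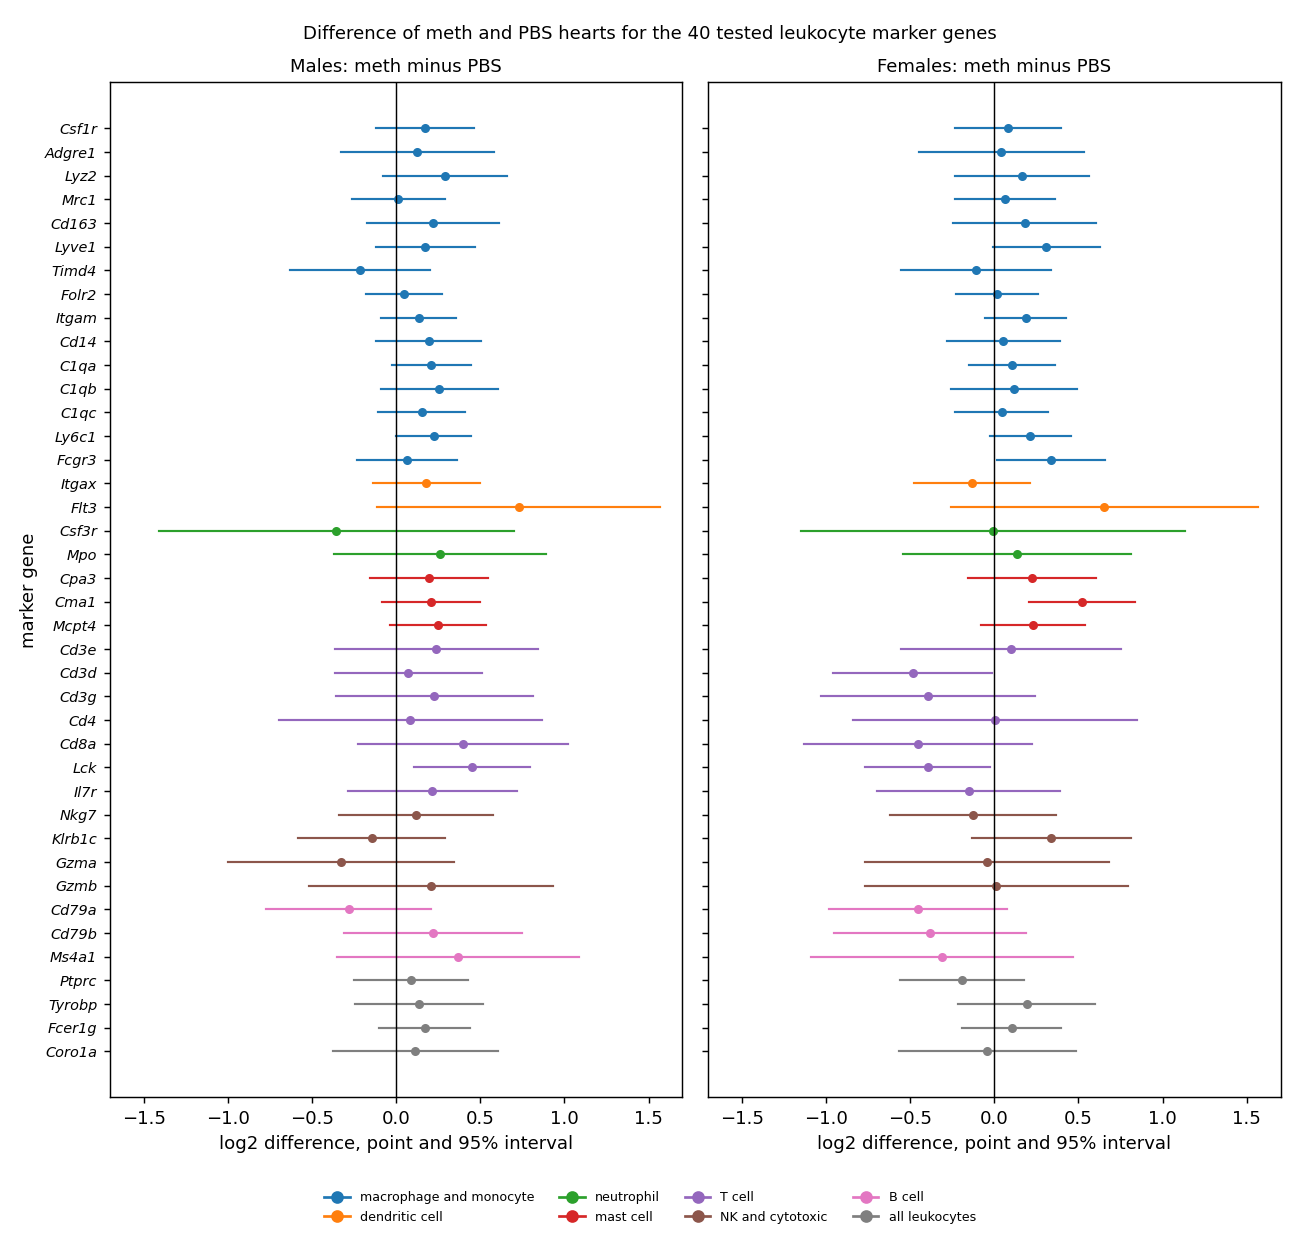
Difference of meth minus PBS hearts in normalized log2 signal for each tested marker, in males and in females, with 95% intervals from the limma fit. The macrophage intervals are short and all lie within 1 unit of 0, while that of Csf3r is the longest in both sexes.

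None of the 15 macrophage and monocyte genes passed in either sex by limma, and 1 had an unadjusted p under 0.05 in each. The difference was positive for 14 of 15 in males, from -0.21 to 0.29 with a median of 0.17, and for 14 of 15 in females, from -0.11 to 0.33 with a median of 0.10. Every one of these intervals lay within 1 unit of 0. Timd4, a receptor for dying cells carried by long-lived resident macrophages, was the negative one in both sexes, at -0.21 (SE 0.190) and -0.11 (SE 0.205). In males it differed by 0.09 within trial 1 and by -0.52 within trial 2. There 1 meth heart read -3.38, while the other male meth hearts read -2.50, -2.40 and -2.52. Csf1r, the receptor of the macrophage growth factor, differed by 0.17 in males and 0.08 in females, and the complement genes C1qa, C1qb and C1qc by 0.15 to 0.26 in males and 0.04 to 0.12 in females.

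Ly6c1 encodes a surface antigen and stood in both the macrophage and monocyte list and the endothelial list. Its signal in whole heart therefore cannot be assigned to monocytes. In male meth hearts it read 3.62 and 3.63 in trial 1 and 3.72 and 3.79 in trial 2, and in male PBS hearts 3.36 and 3.47 in trial 1 and 3.49 and 3.56 in trial 2. The lowest male meth value exceeded the highest male PBS value, and the groups separated in one direction or the other for 9.78% of all probes. The limma difference was 0.22 (SE 0.102, adjusted p = 0.392), with 0.21 within trial 1 and 0.24 within trial 2. In females it was also 0.21, but there the arrays overlapped. The endothelial list, which holds Ly6c1, had 7 of 10 genes positive in males and 3 of 10 in females, and its part in the Ly6c1 difference was not tested.

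Fcgr3, a low-affinity receptor for antibody on myeloid and NK cells, showed the widest macrophage difference in females. It read 0.17, -0.24, 0.12 and 0.56 in female meth hearts 1 to 4 and -0.30, -0.25 and -0.01 in female PBS hearts 1 to 3. The groups overlapped, since female meth replicate 2 lay among the controls. The difference was 0.33 (SE 0.148, adjusted p = 0.424), or 0.20 with the replicate number as a block, and was 0.06 in males.

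Among genes of all leukocytes, Tyrobp, an adaptor of activating receptors, read 2.67, 2.41, 2.41 and 2.26 in male meth hearts and 2.60, 2.53, 2.04 and 2.03 in male PBS hearts, here and below with trial 1 before trial 2. In females it read 3.10, 2.32, 2.64 and 3.22 with meth and 2.46, 2.61 and 2.81 with PBS. The groups overlapped in both sexes, and the differences were 0.14 (SE 0.174) and 0.19 (SE 0.188). Ptprc, the common leukocyte antigen CD45, differed by 0.09 (SE 0.156) in males and -0.19 (SE 0.169) in females, with both intervals within 1 unit of 0.

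Mast cell genes were positive in 3 of 3 in both sexes, with medians of 0.21 in males and 0.23 in females. Cma1, a chymase stored in mast cell granules, was the one that stood apart. In females it read 0.27, -0.13, 0.20 and 0.54 with meth and -0.29, -0.36 and -0.26 with PBS. The lowest of the 4 meth arrays was above the highest of the 3 PBS arrays, and the groups separated in one direction or the other for 9.11% of all probes. The difference was 0.52 (SE 0.145, 95% interval 0.20 to 0.83, adjusted p = 0.137), with 0.39 on slides 1 and 2 and 0.62 on slide 4. In males it was 0.21 (SE 0.134) with overlapping arrays, and a second Cma1 probe gave 0.32 in females and 0.11 in males. With normexp the first probe gave 0.33 in females.

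Most T cell genes pointed opposite ways in the 2 sexes, without a single call. Cd4 aside, 6 of 6 tested were positive in males, with a median of 0.23. Within trial 2 males Cd3d and Il7r were negative, at -0.17 and -0.06, and the rest of these were positive. In females, with Cd4 counted though measured on 3 arrays only, 5 of 7 were negative, with a median of -0.39. The female signs turned with the normexp background correction, under which 6 of the 7 were positive. Lck, the kinase that starts T cell receptor signalling, had an unadjusted p under 0.05 in both sexes.

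In male meth hearts Lck read -3.86, -3.55, -4.29 and -4.03, and in male PBS hearts -4.65, -4.14, -4.55 and -4.19. In female meth hearts it read -3.94, -4.29, -4.10 and -3.75, and in female PBS hearts -3.59, -3.64 and -3.65. The male arrays overlapped, with the meth mean the higher within each trial, while all female meth arrays lay below all female PBS arrays. The difference was 0.45 in males (SE 0.158, adjusted p = 0.242), with 0.70 in trial 1 and 0.21 in trial 2. In females it was -0.39 (SE 0.171, adjusted p = 0.410), with -0.50 on slides 1 and 2 and -0.28 on slide 4. With the normexp background correction these became 0.08 and 0.07, so the female sign did not hold.

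Cd3d, a chain of the CD3 complex, read -2.83, -3.56, -3.58 and -2.77 in female meth hearts and -2.77, -2.63 and -2.70 in female PBS hearts. All meth arrays lay at or below the PBS arrays, with the nearest pair equal to the second decimal. The difference was -0.48 (SE 0.218, adjusted p = 0.441) and became -0.09 with normexp, and in males it was 0.07 (SE 0.202). Its partners Cd3e and Cd3g differed by 0.10 and -0.39 in females and by 0.24 and 0.23 in males. Cd8a, the cytotoxic T cell co-receptor, was well above background on 4 of 4 male meth, 1 of 4 male PBS, 2 of 4 female meth and 3 of 3 female PBS arrays. Its measured differences of 0.40 (SE 0.288) in males and -0.45 (SE 0.311) in females include the arrays at background, so their size is uncertain.

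**Figure D3:**
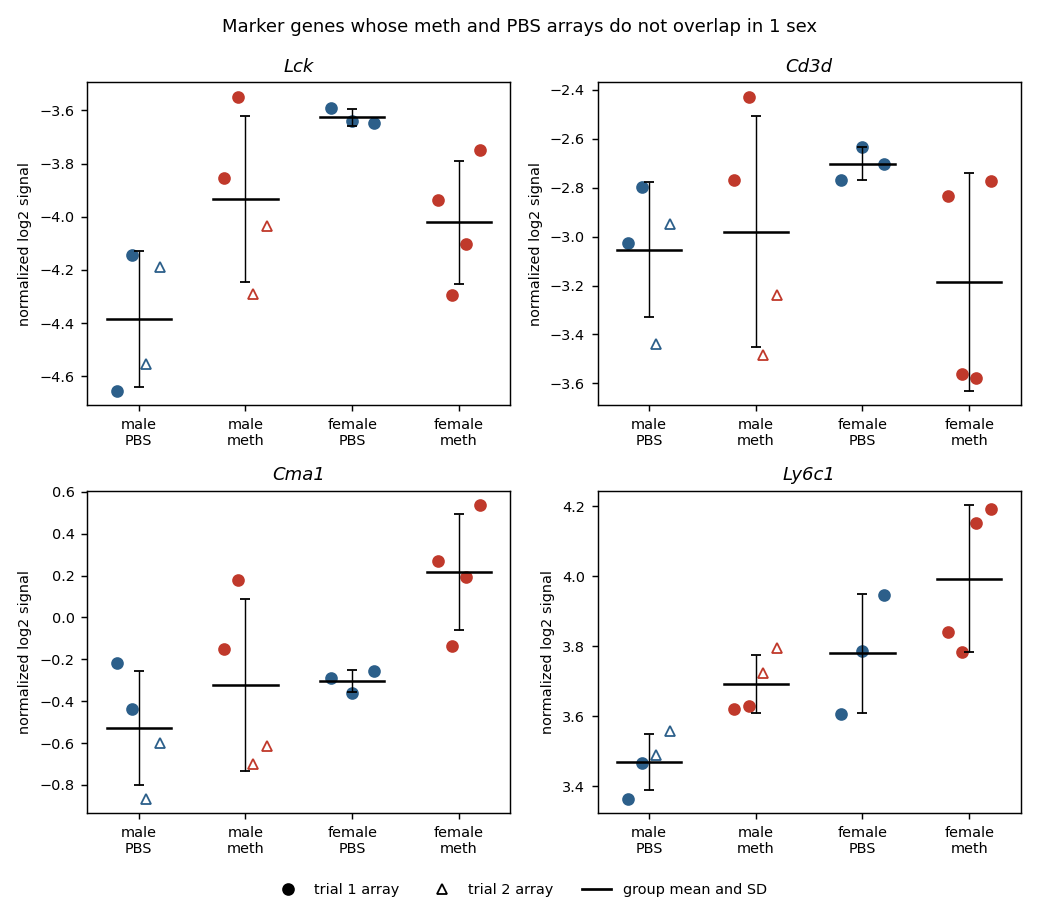
Normalized log2 signal of Lck, Cd3d, Cma1 and Ly6c1 on each array by sex and treatment, with filled circles for trial 1, open triangles for trial 2, and the mean and SD of each group. Female meth and PBS arrays separate for Lck, Cd3d and Cma1, and male ones for Ly6c1.

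B cell genes could be tested for 3 of 5. Cd79b, a chain of the B cell receptor, read -0.02, 0.70, -0.73 and 0.01 in male meth hearts, -0.47, -0.33, -0.14 and 0.02 in male PBS hearts, -0.77, -1.11, -0.64 and -0.38 in female meth hearts and -0.28, -0.46 and -0.28 in female PBS hearts. The groups overlapped in both sexes, and the differences were 0.22 (SE 0.243) and -0.38 (SE 0.263). Its partner chain Cd79a, measured on 11 arrays, read -5.05, -5.83, -5.27 and -4.80 in female meth hearts and -4.99, -4.90 and -4.46 in female PBS hearts, a difference of -0.45 (SE 0.244, adjusted p = 0.548). Cd79a was well above background on 2 of 4 female meth and 2 of 3 female PBS arrays, so the size of that difference is uncertain. Ms4a1, which encodes CD20, differed by 0.37 (SE 0.331) in males and -0.31 (SE 0.358) in females. All 3 were negative in females and 2 of 3 were positive in males.

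The NK and cytotoxic genes split evenly, with 2 of 4 positive in each sex. Nkg7, a granule membrane protein of killer cells, read -2.03, -2.13, -2.63 and -2.22 in male meth hearts and -2.39, -1.83, -3.06 and -2.20 in male PBS hearts. In females it read -1.67, -2.09, -1.95 and -1.32 with meth and -1.71, -1.43 and -1.74 with PBS, so the groups overlapped in both sexes. Klrb1c, the NK1.1 antigen, gave the widest difference of the 4, which was 0.34 (SE 0.217) in females, where it read -4.27, -4.31, -4.43 and -4.21 with meth and -4.88, -4.35 and -4.69 with PBS. These arrays overlapped, and in males the difference was -0.15 (SE 0.201). Klrb1c was well above background on 4 of 4 female meth, 2 of 3 female PBS, 2 of 4 male meth and 2 of 4 male PBS arrays. The size of both differences is therefore uncertain.

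The remaining lineages were read poorly. Csf3r, the receptor of the neutrophil growth factor, was measured on 10 arrays and read -4.02, -4.22, -4.95 and -4.99 in male meth hearts and -4.68, -5.08, -3.38 and -3.62 in male PBS hearts. The order of treatments was opposite in the 2 trials, and the difference was -0.35 with an interval from -1.41 to 0.70. In females it was -0.01, from -1.15 to 1.13. Itgax, the dendritic cell integrin CD11c, read -2.51, -2.32, -2.93 and -2.47 in male meth hearts, -2.54, -2.62, -2.81 and -2.98 in male PBS hearts, -2.27, -2.84, -2.52 and -2.33 in female meth hearts and -2.62, -2.14 and -2.31 in female PBS hearts. The groups overlapped in both sexes, with differences of 0.18 (SE 0.146) and -0.13 (SE 0.158).

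The study also asked whether males and females responded differently. In the test of that difference, male minus female, no marker passed by limma, against 0.138% of all probes, and 1 of 40, Lck, had an unadjusted p under 0.05, against 8.59% of all probes. The Lck difference was 0.85 (SE 0.233, adjusted p = 0.358) and became 0.01 with normexp. Without Cd4, 6 of 6 T cell genes were positive with a median of 0.59, and so were 3 of 3 B cell genes with a median of 0.60, but 0 of 6 T cell intervals and 1 of 3 B cell intervals lay within 1 unit of 0. With normexp 2 of the 6 T cell genes were positive. For the 15 macrophage genes the values ran from -0.27 to 0.14 and all 15 intervals lay within 1 unit. Over all 40 tested markers, Cd4 and Flt3 included, 29 were positive, which became 18 when arrays were centred on their median signal, which moved the median of all probes from -0.01 to -0.12.

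Between male and female PBS hearts no marker passed by limma, against 0.473% of all probes. Trial was in this fit, so PBS males were set at the level of trial 1 by a trial term that also drew on meth males. With an unadjusted p under 0.05 there were 4 of 40, against 15.2% of all probes, and all 4 (Lck, Gzma, Gzmb and Ly6c1) were lower in males. The methods' t-test gave 0 after adjustment. In trial 1 arrays alone Gzmb passed, at -0.95 (adjusted p = 0.022). The sexes were therefore also compared over both treatments in the same fit, a comparison added after these values had been seen. Since all females were placed in trial 1, the differences in this comparison set trial 1 males against the females. The males of the other trial entered only the SE.

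Granzymes A and B are proteases that killer cells release into their targets. Gzma read -2.98, -3.40, -4.92 and -3.31 in male meth hearts and -2.74, -2.56, -4.52 and -3.46 in male PBS hearts. In females it read -1.91, -2.09, -2.17 and -1.76 with meth and -2.07, -1.61 and -2.13 with PBS. All 8 male arrays lay below all 7 female arrays.

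Gzmb separated in the same way. It read -4.87, -4.77, -6.57 and -4.85 in male meth hearts, -4.68, -4.78, -6.90 and -5.53 in male PBS hearts, -3.64, -4.03, -3.75 and -3.65 in female meth hearts and -3.71, -3.79 and -3.83 in female PBS hearts. It was well above background on all 7 female arrays, on the 4 male arrays of trial 1 and on none of trial 2. Gzma and Gzmb were 2 of the 40 markers whose male and female arrays did not overlap, against 1.49% of all probes.

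With trial in the fit, trial 1 males read 0.514-fold of females for Gzma (limma, log2 SE 0.275, adjusted p = 0.074). For Gzmb they read 0.499-fold (log2 SE 0.297, adjusted p = 0.080), so neither gene passed. The 4 trial 2 male arrays, on which Gzmb was not well above background, do not enter these folds and bear only on the SE. Without the trial term those arrays enter too, and the log2 differences were -1.52 and -1.60 and both passed. The size of that Gzmb difference is therefore uncertain. With trial in the fit and normexp, the log2 differences were -0.36 (adjusted p = 0.420) and -0.22 (adjusted p = 0.719). Within the slides that held both sexes, each with 2 hearts a sex, Gzma differed by -0.87 and -1.13 and Gzmb by -1.10 and -0.86. Over the NK and cytotoxic markers 4 of 4 were negative, with a median of -0.71.

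**Figure D4:**
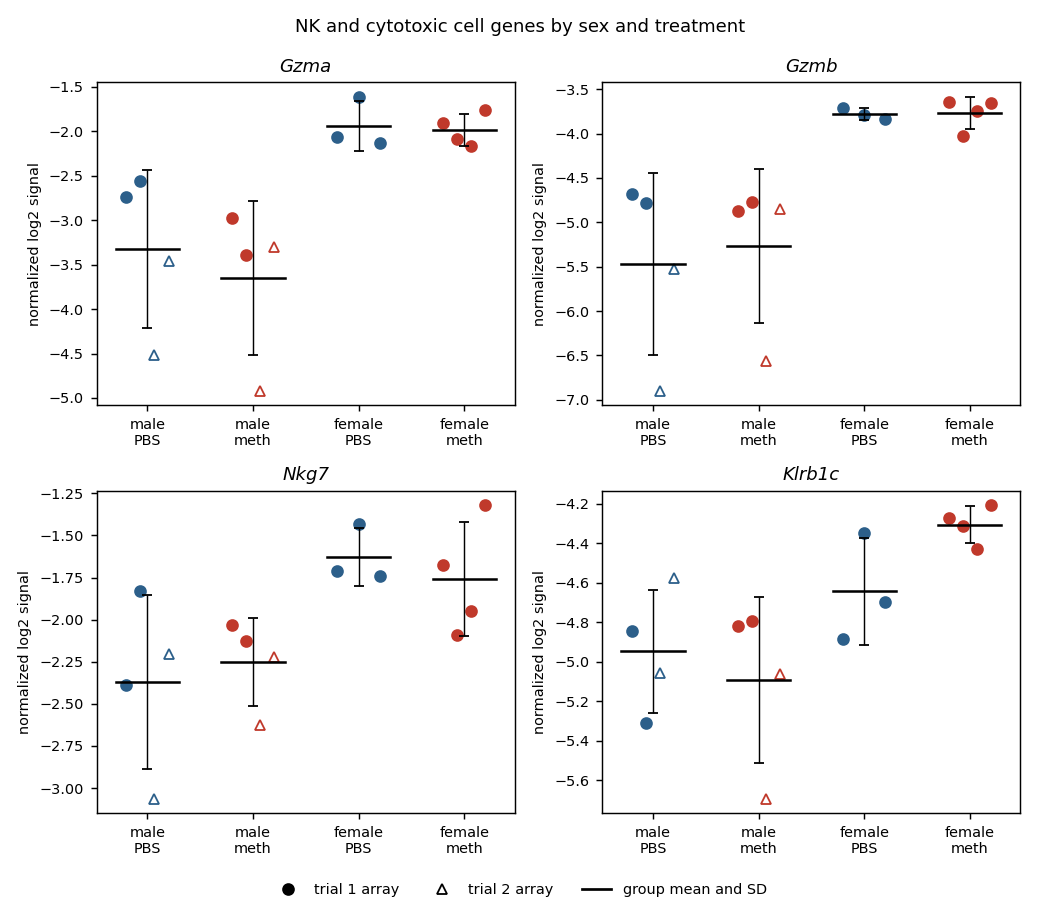
Normalized log2 signal of Gzma, Gzmb, Nkg7 and Klrb1c on each array by sex and treatment, with filled circles for trial 1, open triangles for trial 2, and the mean and SD of each group. For Gzma and Gzmb all 7 female arrays lie above all 8 male arrays, and the lowest male arrays are from trial 2.

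Over both treatments 1 of the 40 markers passed, against 3.61% of all probes, and 9 had an unadjusted p under 0.05, against 22.1%. The one was Ly6c1, lower in trial 1 males than in females by a log2 difference of -0.37 (SE 0.091, adjusted p = 0.048). In females it averaged 3.99 ± 0.21 with meth (SD, n = 4) and 3.78 ± 0.17 with PBS (SD, n = 3). In males of both trials together it averaged 3.69 ± 0.08 with meth and 3.47 ± 0.08 with PBS (SD, n = 4 each). The male and female arrays overlapped, and 9 of the 10 endothelial genes were also lower in males, though of these Ly6c1 alone passed. The call was lost in 12 of 15 fits that left out 1 array, with adjusted p between 0.058 and 0.148. It was kept only without female PBS replicate 1 or female meth replicate 1 or 2.

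From a wider list of 15 NK and cytotoxic genes, 5 were well above background on 4 or more of the 8 male arrays. All 5 were lower in males and 1 passed, Gzmm, another granzyme, at -0.31 (SE 0.072, adjusted p = 0.034). Prf1, the pore-forming perforin, and Klrg1, a receptor of mature killer cells, were each well above background on 1 male and 7 female arrays. They passed too (adjusted p = 0.017 and 0.0497), but they entered the test through the female arrays where they were high, so no fold is given and nothing is read from their calls. Liver genes were read beside these. Of 6 tested 6 were lower in males and 4 passed (Alb, Fgb, Mup1 and Mup3). Their summed level was 1.77 to 3.45 on female arrays and 1.05 to 2.25 on male arrays. Alb, Fgb and Mup3 were well above background on no male array and Mup1 on no male PBS array. Alb, Fgb and Mup3 thus entered the test through the female arrays where they were high, so nothing is read from their calls. Of 6 alveolar genes 4 were lower in males, with summed levels of 0.46 to 0.97 and -0.63 to 0.63. Their part in the cytotoxic difference was not tested.

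Mast cell genes were lower in the males of trial 2 than in those of trial 1. This comparison was also added after the values had been seen. Of the 40 markers 4 passed, all lower in trial 2, against 5.35% of all probes, and 14 had an unadjusted p under 0.05, against 22.3%. The 4 were Mcpt4, Cpa3 and Cma1, which are all 3 of the tested mast cell genes, and Folr2. Without Cd4 and Flt3, 31 of 38 were negative, with a median of -0.29 where all probes had 0.00. Trial, slide and scan session cannot be told apart here, since all trial 2 males shared one slide and one session.

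Mcpt4, a chymase of connective tissue mast cells, read 0.61 and 0.82 in the male meth hearts of trial 1 and 0.41 and 0.34 in the PBS hearts of trial 1. In trial 2 it read -0.33 and -0.01 with meth and -0.51 and -0.15 with PBS. All 4 trial 2 hearts lay below all 4 trial 1 hearts, whatever the treatment. It fell by 0.79 on the log2 scale (0.577-fold, SE 0.132, adjusted p = 0.0080), with -0.88 among meth and -0.70 among PBS hearts, and the call held without any 1 of the 15 arrays.

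Cpa3, the carboxypeptidase of mast cell granules, read -0.98 and -0.74 with meth and -1.02 and -1.47 with PBS in trial 1. In trial 2 it read -1.99 and -1.68 with meth and -1.91 and -1.78 with PBS, again with no overlap. It fell by 0.79 (0.579-fold, SE 0.161, adjusted p = 0.018), with -0.98 among meth and -0.60 among PBS hearts. The call was lost without male PBS trial 1 replicate 1, male meth trial 1 replicate 2 or male meth trial 2 replicate 1, at adjusted p of 0.060 to 0.069.

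Cma1 read -0.15 and 0.18 with meth and -0.22 and -0.44 with PBS in trial 1, and -0.70, -0.62, -0.87 and -0.60 in the same order in trial 2. The trials did not overlap. It fell by 0.54 (SE 0.134, adjusted p = 0.039), and its second probe fell by 0.81 (adjusted p = 0.016). The call was lost without any 1 of the 8 male arrays or without female PBS replicate 1 or 2, at adjusted p of 0.051 to 0.125.

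Folr2, a folate receptor of resident macrophages, read 1.84 and 1.88 with meth and 1.95 and 1.78 with PBS in trial 1, and 1.31, 1.60, 1.41 and 1.32 in trial 2. It fell by 0.46 (SE 0.104, adjusted p = 0.028) with no overlap between trials. The call was lost without any 1 male array other than male meth trial 2 replicate 2, at adjusted p of 0.053 to 0.100. With the normexp background correction none of the 4 genes passed by limma (adjusted p from 0.060 to 0.223), though all kept their sign.

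The trial values did not overlap for 11 of the 40 markers, against 20.9% of all probes. Besides the 4 called, Lyz2, the lysozyme of macrophages, Mrc1, the mannose receptor, Cd14, C1qa, Ptprc and Fcer1g lay lower in all trial 2 hearts by the probe that stood for each, and Cd4, the remaining one, was not well above background on any of the 8 and has no direction here. For Ptprc that probe differed by -0.30, and its other probes by 0.21 and -0.02. Lyz2 differed by -0.62 (SE 0.169, adjusted p = 0.054). Gzma differed by -1.13 (SE 0.309, adjusted p = 0.054), with arrays that overlapped, and by -0.39 with normexp.

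**Figure D5:**
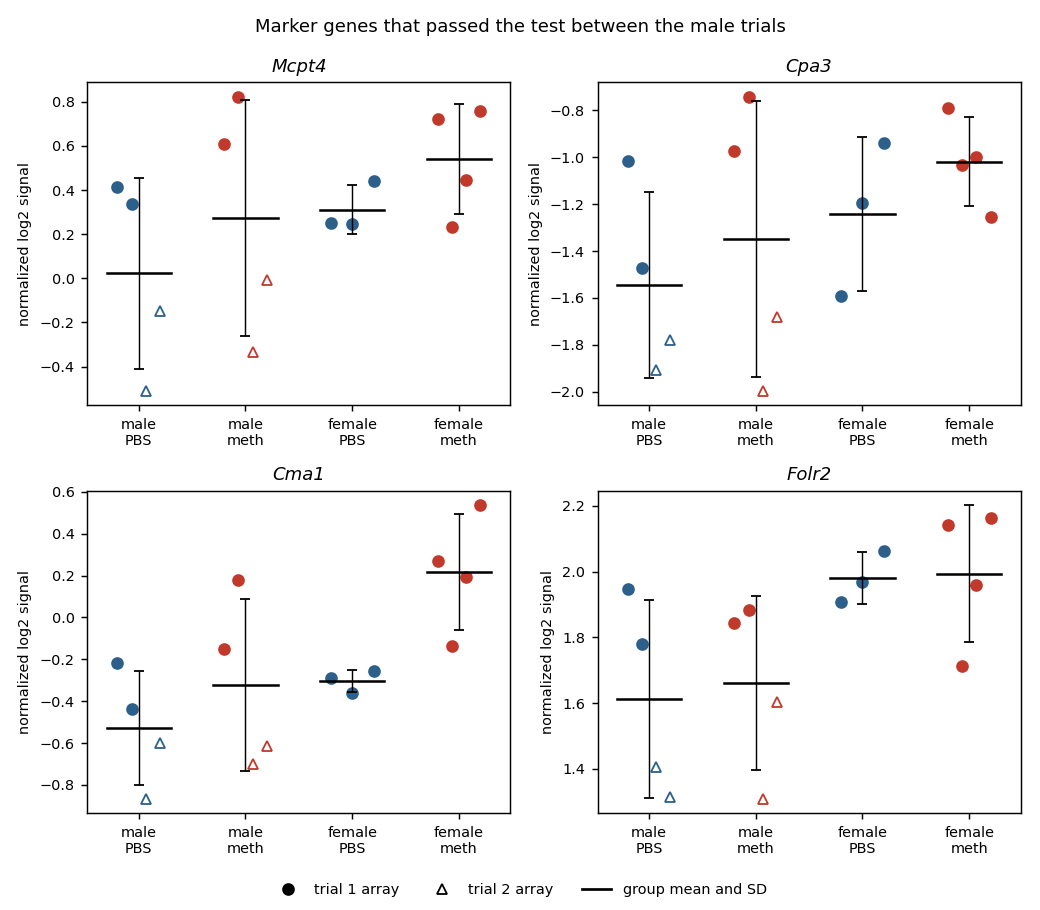
Normalized log2 signal of Mcpt4, Cpa3, Cma1 and Folr2 on each array by sex and treatment, with filled circles for trial 1, open triangles for trial 2, and the mean and SD of each group. In males every triangle lies below every circle for each of the 4 genes.

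The females gave no such split between slides. Their slide 4 against slides 1 and 2 differed by 0.19 for Mcpt4, 0.09 for Cpa3 and 0.29 for Cma1, each with 3 against 4 hearts and opposite in sign to the males. In a wider list of mast cell and basophil genes 5 of 10 could be tested, all 5 were negative between trials, and Slc18a2, the transporter that loads amines into granules, fell by 0.34 (SE 0.083, adjusted p = 0.038). Of white fat genes 9 of 9 were negative and 0 passed by limma (5 with an unadjusted p under 0.05), at summed levels of 7.89 to 8.90 in trial 1 and 7.68 to 8.02 in trial 2. Of platelet genes 7 of 7 were negative and 0 passed by limma (2 with an unadjusted p under 0.05). The part of either in the mast cell difference was not tested.

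The promoters of the 3 mast cell genes are shown because these genes moved together between the trials. Each line gives the 250 bases before the RefSeq start on GRCm38.p6, 5′ to 3′ on the minus strand on which all 3 genes lie, and the capitals mark GATAA, the core bound by GATA factors, or its reverse TTATC. Mcpt4 lies at chr14:56062311-56062560, Cma1 at chr14:55944676-55944925 and Cpa3 at chr3:20242182-20242431.
Mcpt4: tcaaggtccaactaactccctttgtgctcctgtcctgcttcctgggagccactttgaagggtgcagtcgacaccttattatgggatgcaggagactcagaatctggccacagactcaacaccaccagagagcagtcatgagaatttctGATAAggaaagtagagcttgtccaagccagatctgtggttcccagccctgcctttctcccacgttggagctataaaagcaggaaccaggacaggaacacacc
Cma1: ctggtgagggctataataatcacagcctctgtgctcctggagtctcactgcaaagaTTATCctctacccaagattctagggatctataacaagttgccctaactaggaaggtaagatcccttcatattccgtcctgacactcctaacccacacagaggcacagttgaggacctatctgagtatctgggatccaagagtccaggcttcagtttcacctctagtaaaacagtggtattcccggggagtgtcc
Cpa3: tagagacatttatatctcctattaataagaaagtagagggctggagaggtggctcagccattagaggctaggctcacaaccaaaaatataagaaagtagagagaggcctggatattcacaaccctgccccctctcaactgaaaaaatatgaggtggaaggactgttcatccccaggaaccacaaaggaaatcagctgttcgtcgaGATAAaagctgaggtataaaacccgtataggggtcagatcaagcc

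Each window held 1 match, 97 bases before the start in Mcpt4, 189 in Cma1 and 40 in Cpa3, and the one in Cma1 was on the reverse strand. Of all 32851 RefSeq promoters, 22.6% held the same letters on either strand in a window of this length. The Mcpt4 and Cma1 windows lay 117.6 kb apart, and that of Gzmb, on the same strand 200 kb from Mcpt4, held 0 matches. A match is only a run of letters, and binding was not measured.

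Other leukocyte genes, taken from lists of 164 names of which 127 could be tested, were read beside the markers. In males 97 of the 127 were positive with meth and 3 passed, where 42.5% of all probes were positive and 1.10% passed. In females 43 were positive and 1 passed, which was lower, where 14174 of 28358 probes were positive and 0.769% passed, so the female call count was near the background. Of the wider B cell list 12 of 16 were positive in males and 16 of 16 negative in females, and none passed by limma (2 and 5 with an unadjusted p under 0.05). The difference between sexes for this list had 15 of 16 positive and 0 passing (6 with an unadjusted p under 0.05).

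Of the 3 genes that passed in males, Jchain and Derl3 came from the plasma cell list. Jchain, which joins antibody units, read 0.30, 1.84, -0.39 and 0.10 in male meth hearts and -1.85, -3.61, -2.24 and -2.43 in male PBS hearts. The groups did not overlap, and it rose by 3.00 on the log2 scale (SE 0.575, adjusted p = 0.029). In females it read -0.96, -1.94, -2.10 and -1.31 with meth and -1.10, -3.13 and -3.36 with PBS, which overlapped, a difference of 0.95 (SE 0.621, adjusted p = 0.648). Derl3, a protein of the secretory pathway, read -4.24, -3.28, -4.24 and -3.35 with meth and -5.21, -5.24, -4.92 and -4.94 with PBS. It passed the test (adjusted p = 0.022), but was well above background on 1 of 4 male PBS arrays. With the undetected arrays raised to the lowest detected signal of each array, it was at least 2.29-fold higher, and the measured log2 difference was 1.30 (SE 0.235). In females Derl3 read -3.62, -4.27, -3.44 and -3.88 with meth and -4.67, -4.72 and -4.76 with PBS, also without overlap, a difference of 0.91 (SE 0.254, adjusted p = 0.136).

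Cbr2, a reductase of macrophages and of airway club cells, read 4.60, 5.64, 3.82 and 4.53 in male meth hearts and 3.76, 3.74, 3.34 and 3.39 in male PBS hearts, and rose by 1.09 (SE 0.214, adjusted p = 0.032). In females the one that passed was Prdm1, the regulator of plasma cell fate, which read -2.89, -3.06, -2.75 and -2.71 with meth and -2.08, -2.02 and -2.17 with PBS. It fell by 0.76 (limma, SE 0.157, adjusted p = 0.047). In males Prdm1 did not pass, but read -2.48, -3.15, -2.34 and -2.55 with meth and -2.05, -2.29, -2.07 and -2.30 with PBS. Those groups did not overlap either, where 9.78% of all probes separated in males. Of the 5 tested genes of the plasma cell list, 4 were positive and 1 negative in males, and 3 were positive and 2 negative in females. Airway epithelium genes were higher with male meth as well: 18 of 18 tested were positive and 13 passed, with summed levels of 5.27 to 7.50 in male meth, 1.11 to 1.55 in male PBS, 1.68 to 2.75 in female meth and 1.95 to 2.45 in female PBS hearts. Foxj1, Cdh1 and Muc5b entered the test only through the male meth arrays where they were high, so nothing is read from their calls. Bpifa1, Reg3g, Ltf and Dynlrb2 were well above background on no male PBS array, so the size of their differences is uncertain. The part of the airway epithelium genes in the Jchain, Derl3 and Cbr2 differences was not tested.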

How the data were processed

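Per the labels, heart RNA was labelled with Cy3 and hybridised to Agilent arrays, 1 heart an array, and the submitters' processing notes name Agilent Feature Extraction 9.1. The deposited scanner files hold the processed signal, an intensity already corrected for background by the authors' software. The deposited table of log2 values differed from the signals used here by 1 constant on each array (100% of values within 0.01) and served as an alternative.

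The log2 processed signal minus that of each array's 75th percentile was computed for 41174 probes, with outlier spots left out and spots of a probe averaged. Of these, 28358 were well above background on at least 3 of 15 arrays and were tested. limma 3.58.1 in R 4.3.3 was fitted to all 15 arrays with 4 groups and trial, and p-values were adjusted by Benjamini-Hochberg over all tested probes, with a threshold of 0.05. The trial comparison and the sex comparison over both treatments were added after seeing the data. With all females in trial 1, the latter compares trial 1 males with females. The fit was tested on simulated data. p-values measure the spread between hearts, 1 array each, and the number of arrays limits their precision.

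Genes were matched by accession through RefSeq tables. Where a gene had several probes (11 markers), the one with the highest mean signal stood for it; 9 other probes were tested and 0 passed by limma with meth or between PBS hearts. Values on every array are given for markers past the threshold with meth, between sexes in that response or between PBS hearts, for markers whose meth and PBS arrays did not overlap, and, per lineage, for the marker of highest mean signal and that of largest difference; genes of other lists are named where they passed. The markers, lists and added comparisons were chosen with earlier results of these data known. Beside the markers, 22 lists of other cell types and leukocyte genes were read.

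Meth and PBS hearts carry the same replicate numbers within sex and trial. Deviations of same-numbered arrays from their group means correlated at 0.26 to 0.66 over 23808 probes in all 7 pairs. Each of these pairs also shared a slide and a scan session, and male group means were taken over both trials. Differently numbered arrays were not compared. The correlations therefore cannot show whether the numbers pair the animals. A fit with the replicate number as a block, other normalizations and filters, slide and scan session as blocks and the methods' t-tests were run as alternatives.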

Additional observations from a re-analysis of the deposited data

Results flagged for a closer look

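Within groups of 4 arrays, 120 combinations of marker and group were examined for 1 heart far from the other 3, and 6 stood apart, which is 5% where chance gives about 1 in 20. Gzmb in male meth trial 2 replicate 1 read -6.57, with its nearest neighbour at -4.87. Timd4 read -3.38 in the same heart, against -2.52 for the nearest, and -2.62 in male PBS trial 1 replicate 2, against -2.45. C1qb and C1qc read 1.60 and 2.82 in male meth trial 2 replicate 2, with nearest values of 1.89 and 3.04. Mpo, the neutrophil peroxidase, read -5.82 in female meth replicate 1, against -5.10, at a level near background.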

How the results depend on the processing

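The counts of markers past the threshold in male, female and male minus female meth comparisons were 0 in all alternatives run. Among PBS hearts the count was 0 except in trial 1 arrays only, where it was 1 (Gzmb). Between trials it was 4, and became 8 with median centring, 2 with no filter, 0 with normexp (limma) and 11 with males only, and ran from 1 to 5 when 1 array was left out. Between sexes over both treatments it was 1, and became 0 with median centring, no filter, normexp or quantile normalization, 2 with the methods' unpaired t-test, 6 without the trial term, 2 in trial 1 arrays only and 8 with the trial of the source label, and ran from 0 to 2 when 1 array was left out. Of 576 values of single markers under the alternatives, 0 called values changed sign. Many of the 576 belong to differences that were not called in the main fit, so they could not count as a called value changing sign. Some of these did change sign, such as Lck with meth in females, which ran from -0.49 to 0.07.

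The count of all probes moved more. With the replicate block, which follows the pairing of numbers, it was 167 in place of 313 in males, 109 in place of 218 in females and 0 in place of 39 for the difference, and the block changed no call of a marker. Male counts were 0 and 19 by the methods' t-test (paired, unpaired), 180 with no filter, 55 with normexp, 177 with only males, 667 with scan session, 524 with slide and 43 in trial 1, and 119 to 314 without 1 array. Female counts were 124 with median centring, 0 by either t-test, 92 with no filter, 60 without trial, 29 with normexp, 21 with only females, 132 with quantile, 511 with scan session, 412 with slide and 69 in trial 1, and 38 to 200 without 1 array. For the difference they were 12 with probes measured on all arrays, 17 with normexp, 67 with scan session and 9 in trial 1, and 28 to 48 without 1 array. Among PBS hearts (134) they were 17 by t-test, 61 with no filter, 23 with normexp, 32 with only PBS hearts, 343 with scan session, 57 in trial 1 and 235 with the source label, and 42 to 155 without 1 array. Between trials (1517) they were 661 with no filter, 66 with normexp and 3409 with only males, and 415 to 1618 without 1 array. Between sexes (1023) they were 533 with no filter, 132 with normexp, 535 in trial 1 and 3335 with the source label, and 273 to 1639 without 1 array. The cause was not tested.

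Median centring moved the share of higher calls from 26.6% to 58.9% in females, 38.8% to 67.6% among PBS hearts, 59.7% to 36.5% between trials and 41.3% to 62.9% between sexes. It also moved the median of all probes from -0.03 to 0.09 among PBS hearts, where 18 markers in place of 11 were then positive. Signal over background limits the readings of T cell, NK, B cell and neutrophil genes: 11 of the markers were above background on some arrays only.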
